A study of Homo sapiens with 2 samples.

Results

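The genes described here encode the core of the microRNA pathway: the Argonaute genes AGO1, AGO2, AGO3 and AGO4, their partners TNRC6A, TNRC6B and TNRC6C, and the genes of microRNA processing and export DROSHA, XPO5 and DICER1. They are 10 of the 18239 genes with at least 1 probe set of their own on the array, and 41 of 45253 probe sets with 1 gene. All probe sets annotated to a member alone were taken, and no probe set named a member together with another gene. The members were selected by a rule written with the differences between these arrays in view, so their values are a description and were not tested.

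GFP-SAS cells, a tongue squamous cell carcinoma line that carries green fluorescent protein, received either an antisense oligonucleotide of LNA and DNA directed at miR-361-3p (anti-miR cells) or a non-target oligonucleotide of the same kind (control cells). LNA, locked nucleic acid, is a modified nucleotide that strengthens pairing with RNA. Both groups had 25 nM for 24 h, and each was read on 1 array from 1 cell line, with 10 ng of total RNA labelled. There was no replicate, so no p-value is given, and no difference can be set against the variation between cultures.

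A microRNA is cut from its primary transcript in the nucleus by DROSHA, carried to the cytoplasm by XPO5 and trimmed to a short duplex by DICER1. One strand is loaded into an Argonaute protein, which finds messenger RNAs through the seed of the microRNA. Argonaute binds a TNRC6 protein, which recruits deadenylation and decapping enzymes to the message. An antisense oligonucleotide against a microRNA acts on the strand while it sits in Argonaute.

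The microRNA that the oligonucleotide was directed against is shown for orientation, 5′ to 3′, from RefSeq (GRCh38.p14, chrX:85903641-85903663, minus strand), with the seed, bases 2 to 8, in capitals.
hsa-miR-361-3p: uCCCCCAGgugugauucugauuu
It is 23 bases long, and none of the other mature microRNAs in that table, which holds 2370 names in all, has the same seed. Messenger RNA sequences were not used here, so seed matches in the members were not counted.

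Of the 10 members, 9 had lower values in anti-miR cells than in control cells and 1, TNRC6C, had a higher one. Among all genes, 32.2% had lower values in anti-miR cells. A gene's value is the mean log2 expression over all its probe sets, and each difference is taken as anti-miR minus control. At a threshold of 1.5-fold, 4 members were lower (TNRC6A, DROSHA, DICER1 and XPO5) and 0 were higher. Among all 18239 genes, 7.37% were lower and 4.40% higher by this threshold, which is the background of these arrays and not a test of the members. The median difference was -0.51 over the members and 0.10 over all genes. At 2-fold, 0 members were lower by the mean over all probe sets, against 3.04% of all genes. TNRC6A, the member nearest to it, passed it with the median of all genes subtracted, at -1.04. With the median of all genes subtracted, the members kept their signs, and TNRC6B, at -0.65, joined the genes past 1.5-fold. Higher genes made up 37.4% of all genes past 1.5-fold, and 22.4% with that median subtracted.

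**Figure D1:**
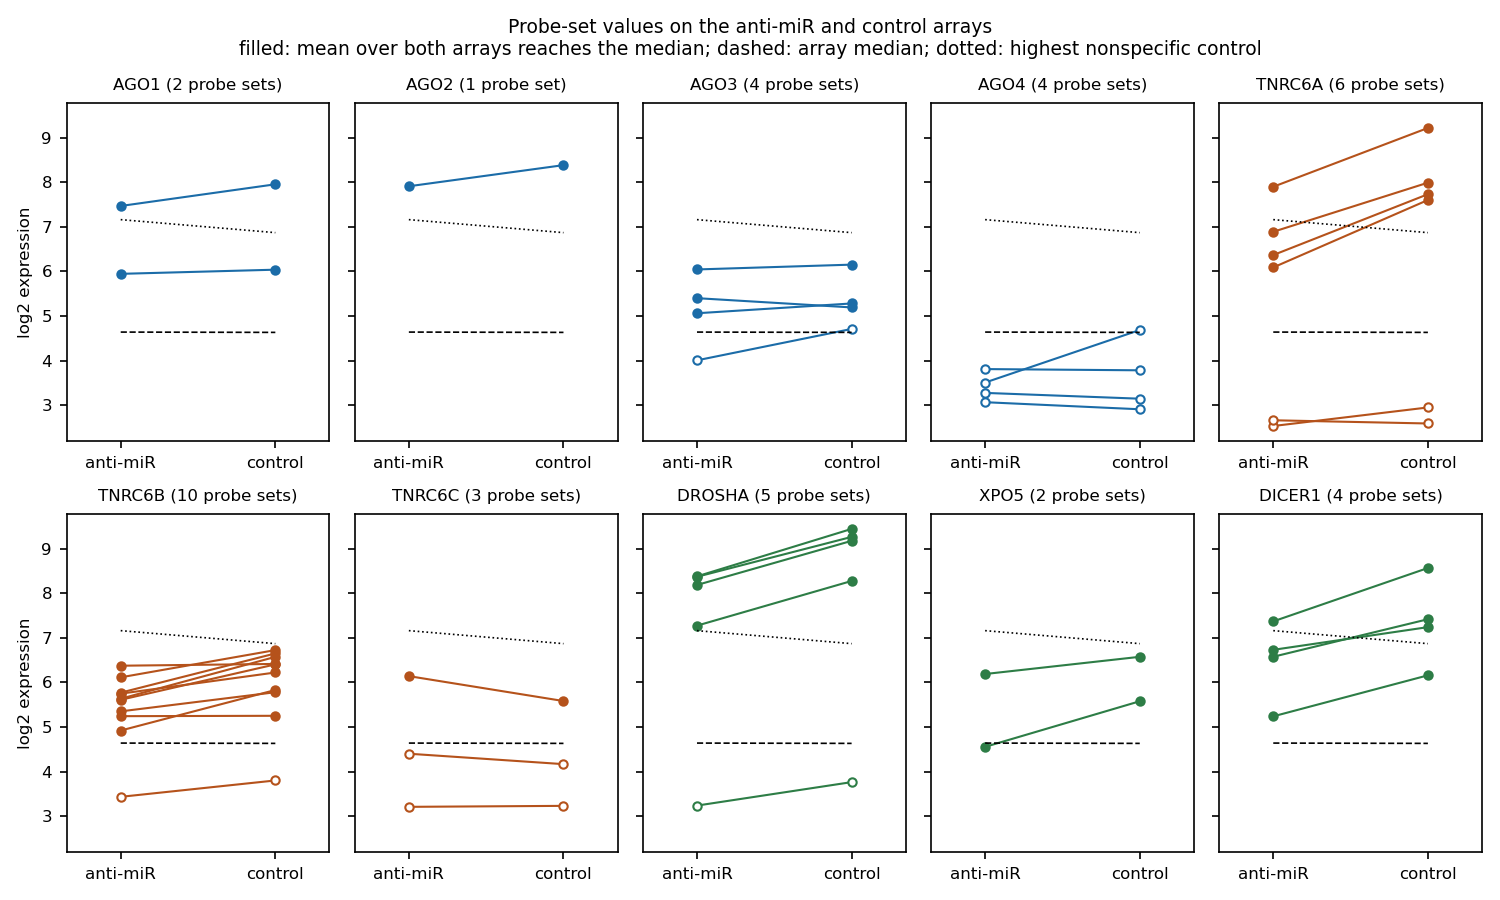
Log2 expression of each probe set of the 10 members in anti-miR cells (left in each panel) and control cells (right), 1 line per probe set. Blue is Argonaute, orange TNRC6 and green processing and export. Filled points have a mean over both arrays that reaches the array median (dashed), and the dotted line joins the highest nonspecific control probe set of each array. The 4 bright probe sets of DROSHA lie above that line on both arrays and lower in anti-miR cells.

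The array medians were 4.64 in anti-miR cells and 4.63 in control cells. The nonspecific control probe sets, 23 probe sets with no human target, reached 7.16 in anti-miR cells and 6.87 in control cells, and a value within that range is not shown to be above background. Poly-A spike RNAs, which enter the labelling reaction with the sample, averaged 0.32 ± 0.19 more in anti-miR cells (SD, 12 probe sets), and the part of this offset in the members' differences was not tested. By the highest probe set on each array, the squamous markers KRT5, CDH1, SFN and DSP lay above the nonspecific controls on both arrays. KRT14 (gene mean 3.87 in anti-miR cells and 3.63 in control cells) and DSG3 (5.52 and 5.40) did not. The gene mean of CDH1, 6.31 in anti-miR cells and 6.53 in control cells, was not above these controls. None of the leukocyte (4), endothelial (4) or fibroblast (6) markers lay above them by the highest probe set. The highest of their gene means was 4.07 in anti-miR cells and 3.91 in control cells. None of the 20 markers measured differed by 1.5-fold, beside 7.37% of all genes lower and 4.40% higher. In bulk RNA such as this, fewer cells that express a gene and less of its RNA per cell cannot be told apart.

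DROSHA, the nuclear RNase III of the Microprocessor, was lower in all 5 of its probe sets. Its 4 bright probe sets read 8.38, 8.37, 8.18 and 7.27 in anti-miR cells, against 9.44, 9.26, 9.17 and 8.27 in control cells. Each was lower in anti-miR cells, and all 4 lay above the nonspecific controls on both arrays. The differences ran from -1.06 to -0.89, while another, dim probe set read 3.24 against 3.76 and differed by -0.53. The gene mean was 7.09 in anti-miR cells and 7.98 in control cells, a difference of -0.90 ± 0.22 (SD over 5 probe sets, a technical spread within the arrays) or 1.86-fold lower. Of the bright probe sets, 2 are of the _x_at type, some of whose probes match other transcripts too, and these differed by -1.06 and -0.99. The other 2, of the _a_at type, which reads several transcripts of 1 gene, differed by -1.0 and -0.89.

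DICER1, the cytoplasmic RNase III that makes the duplex, was lower in all 4 of its probe sets. They read 7.37, 6.73, 6.57 and 5.24 in anti-miR cells, against 8.57, 7.24, 7.42 and 6.16 in control cells. The brightest, the 1 DICER1 probe set above the nonspecific controls on both arrays, differed most, by -1.20. The gene differed by -0.87 ± 0.28 (SD over 4 probe sets), 1.82-fold lower. Of these probe sets 3 are of the _s_at type, whose probes can match transcripts of more than 1 gene.

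XPO5, the exportin of precursor microRNAs, was lower in both probe sets, which disagreed in size. The brighter read 6.19 in anti-miR cells and 6.57 in control cells, a difference of -0.39. The dimmer read 4.55 against 5.58, a difference of -1.02, and lay below the median in anti-miR cells. Neither was above the nonspecific controls on either array, so the gene difference of -0.70 ± 0.45 (SD over 2 probe sets) is not an exact size. Taken from the brighter probe set alone, XPO5 was short of 1.5-fold.

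None of the 4 Argonaute genes reached 1.5-fold, beside 7.37% of all genes lower and 4.40% higher. AGO2, the Argonaute with slicer activity best known in human cells, had 1 probe set, which read 7.91 in anti-miR cells and 8.38 in control cells. That difference, -0.47 or 1.39-fold lower, came from values above the nonspecific controls on both arrays. AGO1 read 7.47 in anti-miR cells and 7.95 in control cells in its brighter probe set, and 5.94 against 6.04 in the other. Its gene difference was -0.29 ± 0.28 (SD over 2 probe sets), and the brighter probe set, at -0.49, was close to AGO2.

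AGO3 and AGO4 were dim and mixed in direction. The 4 probe sets of AGO3 read 6.04, 5.40, 5.06 and 4.0 in anti-miR cells, against 6.15, 5.19, 5.28 and 4.71 in control cells. The second of these was higher in anti-miR cells, and the gene differed by -0.21 ± 0.38 (SD over 4 probe sets), less than the spread between its probe sets. The 4 probe sets of AGO4 read 3.81, 3.51, 3.27 and 3.07 in anti-miR cells, against 3.78, 4.69, 3.14 and 2.91 in control cells. Only the second reached the array median, and did so in control cells alone; it differed by -1.18, while the other 3 were higher in anti-miR cells by 0.03 to 0.16. The gene mean of -0.22 ± 0.64 thus rested on 1 probe set: the median over the 4 probe sets was 0.08, and a filter that keeps a probe set reaching the median on either array leaves -1.18. AGO4, AGO1 and AGO3 are, in this order, neighbours among the protein-coding genes of chromosome 1 in the RefSeq table, and their gene differences lay between -0.29 and -0.21. Argonaute messages are alike in sequence, and how the probes divide between them is not given in the sources used here.

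**Figure D2:**
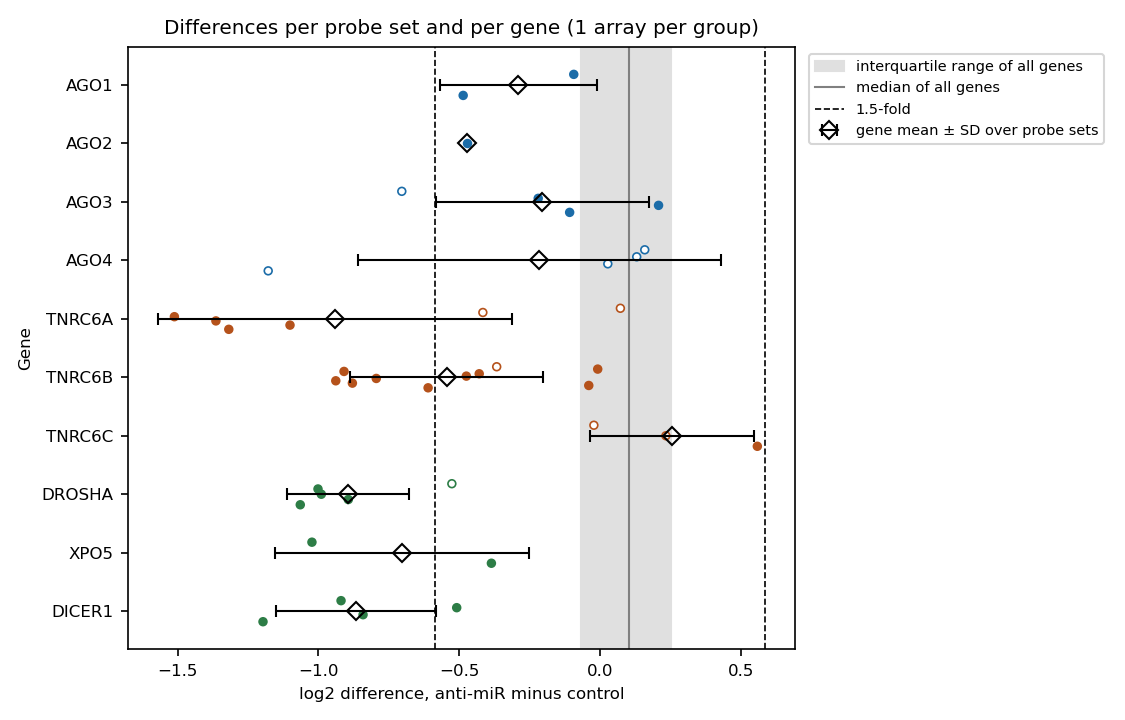
Log2 difference (anti-miR minus control) of each probe set (points; filled where the mean over both arrays reaches the median) and each gene (diamonds, mean ± SD over probe sets; AGO2 has 1 probe set). The grey band is the interquartile range of all genes and the dashed lines mark 1.5-fold. The gene means of DROSHA, XPO5, DICER1 and TNRC6A lie left of the lower line, and TNRC6C (0.26) lies at the upper edge of the band.

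The TNRC6 genes, scaffolds of the silencing complex known for their glycine-tryptophan repeats, differed from each other in direction. TNRC6A had the lowest difference of the members, -0.94 ± 0.63 (SD over 6 probe sets), 1.92-fold lower, and 3.47% of all genes had a lower one. Its 4 bright probe sets read 7.90, 6.89, 6.37 and 6.09 in anti-miR cells, against 9.22, 7.99, 7.73 and 7.60 in control cells. All 4 were lower by more than 2-fold, from -1.51 to -1.10. All 4 also lay above the nonspecific controls in control cells, but in anti-miR cells this held for the brightest alone. The remaining 2 probe sets lay below 3 on both arrays and differed by -0.42 and 0.07, and without them the mean was -1.32.

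TNRC6B had the most probe sets, and all 10 were lower in anti-miR cells. They ranged from 3.43 to 6.37 in anti-miR cells and from 3.80 to 6.72 in control cells. None lay above the nonspecific controls on either array. The differences spread from -0.94 to -0.01, with 5 past 1.5-fold, and the gene mean of -0.55 ± 0.34 (SD over 10 probe sets) was just short of it. The pair nearest to 0, at -0.04 and -0.01, read 6.37 and 5.24 in anti-miR cells, against 6.41 and 5.25 in control cells, and the first of these was the brightest TNRC6B value in anti-miR cells.

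TNRC6C was the 1 member with a higher gene value in anti-miR cells. Its probe sets read 6.14, 4.40 and 3.21 in anti-miR cells, against 5.58, 4.17 and 3.23 in control cells. The brightest differed by 0.56 and was the 1 TNRC6C probe set that reached the median, but it lay within the range of the nonspecific controls. The gene difference was 0.26 ± 0.29 (SD over 3 probe sets), within 1.5-fold, and 0.15 with the median of all genes subtracted. Between TNRC6A and TNRC6C, the gene differences were thus 1.20 apart on the log2 scale, and each was compared on 1 pair of arrays.

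Over all 41 member probe sets, 34 were lower and 7 higher in anti-miR cells, while 38.1% of all probe sets were lower. By 1.5-fold, 19 were lower, against 9.87% of all probe sets. None was higher by 1.5-fold, against 5.04% of all probe sets. Of the 30 whose mean over both arrays reached the median, 17 were lower by 1.5-fold, against 16.0% of all such probe sets, and of the 11 dimmer ones 2 were. A total of 8 probe sets lay above the nonspecific controls on both arrays: 1 each of AGO1, AGO2, TNRC6A and DICER1, and 4 of DROSHA. All 8 were lower in anti-miR cells, against 38.5% of all such probe sets. By 1.5-fold, 6 of the 8 were lower, against 10.5% of all such probe sets. The median of the 8 was -1.0, against 0.11 for all such probe sets. All 10 members had a probe set that reached the median on at least 1 array, as did 11272 of all 18239 genes. On both arrays, 9 members had such a probe set. In AGO3, AGO4 and XPO5, 1 probe set each reached the median in control cells alone, so it entered a filter on either array through the array where it was high. The probe sets of a member can share probes and are not replicates.

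The members are long genes. Gene span, the distance from the first to the last base of a gene in the RefSeq table, ran from 50.3 kb for AGO4 to 291 kb for TNRC6B, and all members fell into the longest 2 of 5 equal groups (quintiles) of the 18189 genes with a span. Across these arrays, differences were lowest among the longest genes: the median was 0.17 in the shortest quintile, 0.19, 0.14 and 0.05 in the next ones, and -0.06 in the longest. The share of genes lower by 1.5-fold was 0.852% in the shortest quintile, 9.48% in the fourth and 21.5% in the longest. In the longest quintile, 2 of 6 members (TNRC6A and DROSHA) were lower by 1.5-fold, and the median was -0.51 over these members and -0.06 over the other genes. In the fourth, 2 of 4 members (XPO5 and DICER1) were, and the medians were -0.50 and 0.05. TNRC6C, at 151 kb in the longest quintile, was higher, while AGO4 and XPO5, both near 50 kb (50.3 and 53.7 kb), differed by -0.22 and -0.70. The part of gene span in the members' differences was not tested.

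**Figure D3:**
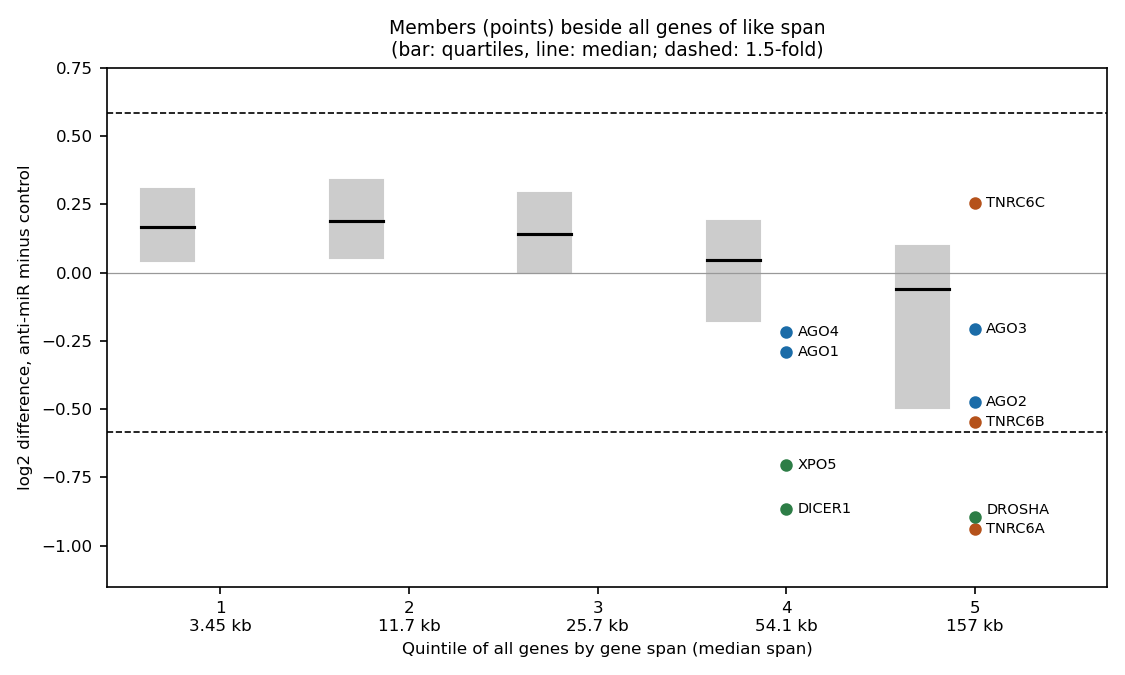
Log2 difference (anti-miR minus control) of the members (points, coloured by role) beside all genes of the same quintile by gene span (grey bars, quartiles; black lines, medians), with the median span of each quintile under the axis. The medians of all genes are 0.17 in the shortest quintile and -0.06 in the longest, and of the members TNRC6C (0.26) lies above the bar of its quintile.

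Promoters of TNRC6A, TNRC6B and DROSHA are shown as examples from RefSeq (GRCh38.p14), 5′ to 3′ in the direction of the gene. Each has 1 annotated start, and all its probe sets whose mean reached the array median were lower in anti-miR cells. AGO1 and XPO5, not shown, share these traits. The capitals mark GC boxes (GGGCGG) and CCAAT boxes (CCAAT) on either strand, found by exact match, and no marked box overlaps another in these windows.
TNRC6A, chr16:24729401-24729700, plus strand: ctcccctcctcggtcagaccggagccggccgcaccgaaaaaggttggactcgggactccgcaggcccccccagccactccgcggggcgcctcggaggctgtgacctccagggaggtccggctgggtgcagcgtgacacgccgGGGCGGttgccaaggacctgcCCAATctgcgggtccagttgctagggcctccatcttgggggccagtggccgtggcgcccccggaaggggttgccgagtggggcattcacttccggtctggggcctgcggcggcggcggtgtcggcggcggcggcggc
TNRC6B, chr22:40044584-40044883, plus strand: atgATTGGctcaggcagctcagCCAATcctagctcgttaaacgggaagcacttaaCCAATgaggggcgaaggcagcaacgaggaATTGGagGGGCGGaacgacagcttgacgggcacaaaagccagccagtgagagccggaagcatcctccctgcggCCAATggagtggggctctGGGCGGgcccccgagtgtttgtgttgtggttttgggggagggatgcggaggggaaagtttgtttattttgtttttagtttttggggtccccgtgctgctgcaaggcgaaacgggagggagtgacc
DROSHA, chr5:31532044-31532343, minus strand: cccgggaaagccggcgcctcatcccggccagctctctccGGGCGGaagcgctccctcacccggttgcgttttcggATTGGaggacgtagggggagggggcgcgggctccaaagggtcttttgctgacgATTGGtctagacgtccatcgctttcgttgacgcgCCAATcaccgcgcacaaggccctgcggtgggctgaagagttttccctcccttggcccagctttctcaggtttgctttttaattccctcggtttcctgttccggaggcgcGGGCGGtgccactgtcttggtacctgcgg
TNRC6A had 1 GC box and 1 CCAAT box, TNRC6B had 2 and 5, and DROSHA had 2 and 3. In the windows not shown, AGO1 had 2 and 1, and XPO5 had 2 and 0. The motifs are common: 45.0% of the 35116 promoter windows in the table, each of 300 bases, hold a GC box and 34.6% a CCAAT box. AGO2 was left out of the member windows, so the member counts do not cover it. Of 16 windows of the other 9 members, some of which overlap, 11 held a GC box and 7 a CCAAT box. The ETS core CCGGAAG was in 3 windows (AGO3, TNRC6A and TNRC6B), against 10.3% of all, the E-box CACGTG in 1 of the 4 windows of TNRC6C, against 7.26%, and TATAAA in 0, against 11.5%. TNRC6C, the member with a higher value, had 2 GC boxes and 2 CCAAT boxes in that same window.

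Other genes of the pathway were read from a list of 73 partners, of which 72 had a probe set. Of these, 15 were at least 1.5-fold lower and 3 higher, 20.8% and 4.17%, against 7.37% and 4.40% of all genes, and the median difference was 0.01, against 0.10. All lower partners but AJUBA, DDX17 and TSN fall in the fourth or longest quintile of gene span. In these quintiles, 9.48% and 21.5% of all genes were lower. The part of gene span in the partners' differences was not tested. DGCR8, the RNA-binding subunit of the Microprocessor, read 4.41 in anti-miR cells and 4.34 in control cells, a difference of 0.07 ± 0.02 (SD over 2 probe sets). That is below the median of all genes, and neither probe set lay above the nonspecific controls on either array. TARBP2 and PRKRA, the RNA-binding partners of Dicer, differed by 0.30 ± 0.48 and 0.46 ± 0.10 (SD over 2 probe sets each), and the bright probe set of TARBP2 differed by 0.64. None of the 7 genes of Dicer partnership and Argonaute loading passed 1.5-fold in either direction, beside 7.37% of all genes lower and 4.40% higher.

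Nuclear processing held 2 higher genes of 14 and 1 lower one, 14.3% and 7.14%, against 4.40% and 7.37% of all genes. NCBP2, the small subunit of the nuclear cap-binding complex, differed by 1.13 ± 0.13 (SD over 5 probe sets), with 8.60 in anti-miR cells and 7.47 in control cells. All of its probe sets are of the _s_at or _x_at type, whose probes can match other transcripts too. SRRT, also called ARS2, which links that complex to microRNA processing, differed by 0.77 ± 0.25 (SD over 8 probe sets), and its 5 brightest probe sets differed by 0.84 to 0.96. DDX17, a helicase of the Microprocessor, differed by -0.68 ± 0.64 (SD over 3 probe sets). Its bright probe set, of the _s_at type, read 8.99 in anti-miR cells, against 10.4 in control cells, a difference of -1.41. The others, at -0.19 and -0.45, were within 1.5-fold.

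Among Argonaute partners, 3 of 10 (30%) were lower and 0 higher, against 7.37% and 4.40% of all genes. IPO8, an importin known to bind Argonaute, had a difference of -1.34 ± 0.69 (SD over 4 probe sets), with none of its probe sets above the nonspecific controls in anti-miR cells. AJUBA, a LIM-domain protein found with Argonaute, had a difference of -1.08 ± 0.67 (SD over 3 probe sets), and its brightest probe set read 9.22 in anti-miR cells and 9.91 in control cells. FMR1, an RNA-binding protein associated with Argonaute, had a difference of -0.92 ± 0.47 (SD over 7 probe sets). Only 1 FMR1 probe set lay above the nonspecific controls in anti-miR cells, and 2 did in control cells.

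Silencing effectors are the deadenylation, decapping and repression factors that act after TNRC6. Of 25, 6 (24%) were lower and 0 higher, against 7.37% and 4.40% of all genes, and their median was -0.09. CNOT2, a core subunit of the CCR4-NOT deadenylase, differed by -1.09 ± 0.18 (SD over 3 probe sets). DCP1A, a decapping activator, differed by -0.98 ± 0.07 (SD over 2 probe sets), with 6.97 in anti-miR cells and 7.95 in control cells. CNOT6L, a catalytic subunit, and XRN1, the exonuclease of decapped messages, differed by -0.84 ± 0.65 (SD over 7 probe sets) and -0.88 ± 1.06 (SD over 4 probe sets). None of the probe sets of these 4 genes lay above the nonspecific controls in anti-miR cells, so the differences are not exact sizes.

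Tailing and turnover factors had the lowest median of the roles, -0.43. Of 12, 5 were lower (41.7%) and 1 higher (8.33%), against 7.37% and 4.40% of all genes. Of the lower ones named here, TUT4 and SND1 lie in the longest quintile of gene span, TENT2 in the fourth and TSN in the second. In these quintiles, 21.5%, 9.48% and 1.7% of all genes were lower. TSN, or translin, which with TSNAX forms a nuclease linked to Argonaute activation, differed by -1.93 ± 1.37 (SD over 4 probe sets), but its probe sets spread from -3.26 to -0.63. TSNAX, named after its value was seen, was the higher one, with 9.41 in anti-miR cells and 8.82 in control cells. Its difference of 0.59 ± 0.01 (SD over 2 probe sets, of the _s_at and _x_at types) was just past 1.5-fold. With the median of all genes subtracted it was 0.49, which is within 1.5-fold. TUT4, a uridylyltransferase, differed by -1.26 ± 0.20 (SD over 2 probe sets), and TENT2, which adds adenosines to microRNAs, by -1.13 ± 0.27 (SD over 4 probe sets). No probe set of TSN, TUT4 or TENT2 lay above the nonspecific controls in anti-miR cells, so these too are not exact sizes. SND1, a nuclease with Tudor domain, read 7.30 in anti-miR cells and 8.19 in control cells in its 1 probe set, a difference of -0.89. The 4 PIWI genes, germline relatives of the Argonautes, differed by less than 1.5-fold, but none of their 5 probe sets lay above the nonspecific controls on either array.

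**Figure D4:**
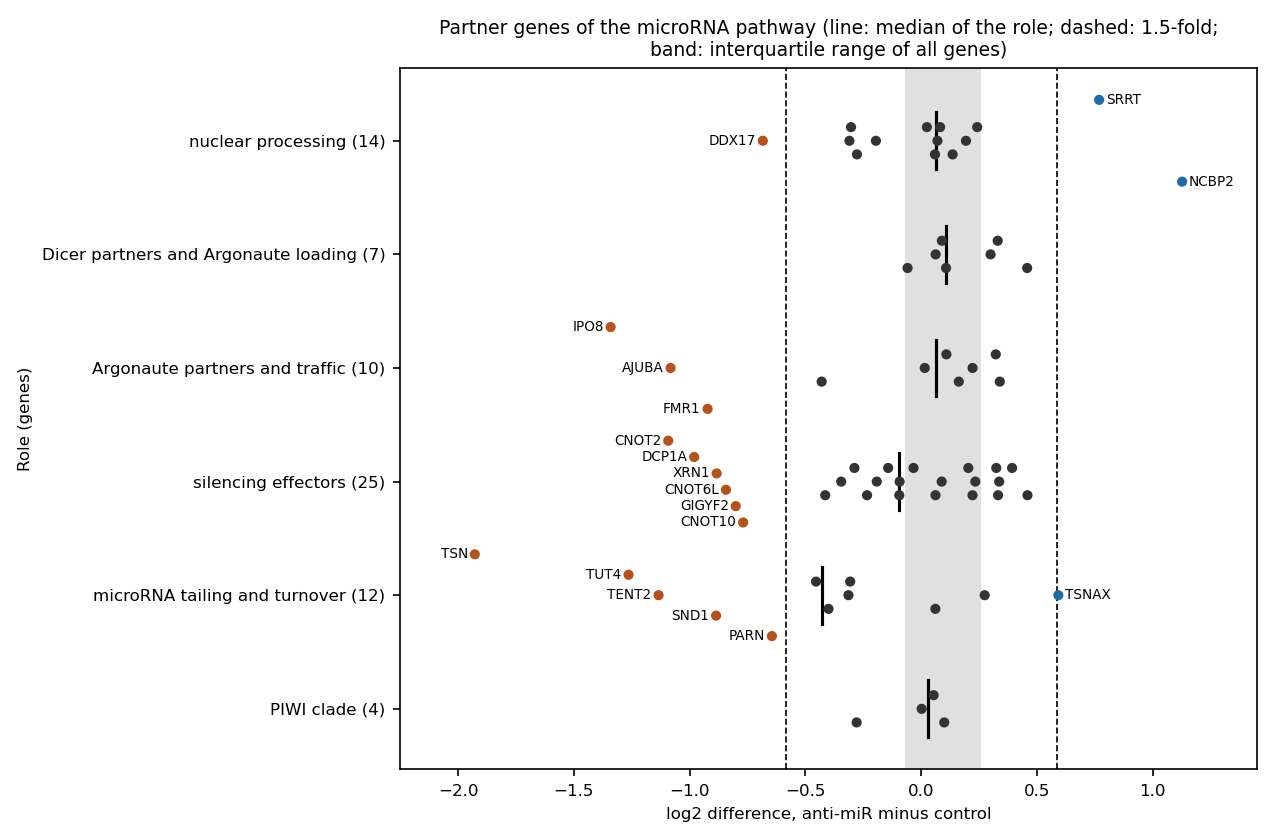
Log2 difference (anti-miR minus control) of 72 partner genes of the microRNA pathway by role, with the median of each role as a black line and the interquartile range of all genes as a grey band. Genes past 1.5-fold (dashed) are named: 15 lie on the lower side and NCBP2, SRRT and TSNAX on the higher side.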

How the data were processed

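Per the labels' protocols, biotin-labelled RNA of GFP-SAS cells was hybridised to Affymetrix 3' expression arrays, 1 per group. The authors deposited 1 log2 value per probe set and array. Per the submitters' processing notes the method was RMA, which subtracts background, aligns arrays to a common distribution and combines the probes of a set. The version of RMA and the set of arrays it was run on are not stated, and the values came without detection calls.

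Of 49386 probe sets, 93 array controls and, of the rest, 1327 with several genes and 2713 with no gene listed were left out of gene values. Symbols were updated by Entrez ID through the RefSeq table of GRCh38.p14, which held 45172 of the 45253 probe sets with 1 gene. All probe sets of a gene were averaged, dim ones included, and fold changes were taken from log2 differences. The pooled SD between probe sets of a gene was 0.30 (11822 genes with at least 2). Precision is limited by having so few arrays. The members and lists were chosen with earlier results of these data known. All members are named, and of the partners DGCR8, TARBP2, PRKRA and up to 4 genes per role with the largest difference past 1.5-fold. A planned comparison of member proteins was not made, since protein sequences were not used here. The gene calculation was tested on simulated data, in which all probe sets of a gene had the same shift and noise below that pooled SD. It cannot show how the gene mean behaves where probe sets disagree. Alternatives were other choices of probe sets and gene value, centring on the median or a lowess trend (fraction 0.3), and a 2-fold threshold. The software was Python 3.11.15 with pandas 2.3.3, numpy 2.4.6, matplotlib 3.10.9 and statsmodels 0.14.6.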

Additional observations from a re-analysis of the deposited data

How the results depend on the processing

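Leaving out an array was not possible with so few. Read depth does not apply to arrays, and no probe set of the dim members AGO3 and AGO4 lay above the nonspecific controls on either array. No paired analysis was possible because there is a single array for either treatment. Plain _at probe sets alone, with 3 members, 8369 genes and 31 partners, gave 1 member lower (TNRC6A), 494 genes lower and 316 higher, and 5 partners lower and 0 higher; fewer genes were counted. A 2-fold threshold gave, with the mean over all probe sets, 0 members lower, 555 genes lower and 106 higher, and 6 partners lower and 1 higher. Joined with each other alternative, a setting chosen after seeing the data, that threshold gave 4 members lower from the probe set of highest level (TNRC6A, DICER1, AGO4 and DROSHA), 3 with lowess (TNRC6A, DROSHA and DICER1), 2 from probe sets that reach the median on either array (TNRC6A and AGO4), 1 (TNRC6A) each when centred, with the median over probe sets and from probe sets whose mean reaches the median, and 0 from plain _at probe sets. TSNAX was 0.49 centred and 0.43 with lowess. Genes higher by 1.5-fold numbered 475 after centring on the median and 375 after a lowess trend, against 802, since most differences are shifted down by these steps. The probe set of highest level gave 5 partners higher; the cause was not tested. Of 62 recomputed member differences, 55 moved by less than the spread between probe sets, 7 by more, and none of those past 1.5-fold changed sign. TNRC6A, DROSHA and DICER1 stayed past 1.5-fold under each alternative that gave a value at that threshold. XPO5 did so in 5 of 6, with -0.39 from its probe set of highest level. TNRC6B came past it in 3 of 6 (-0.61 with the highest probe set, -0.65 centred, -0.68 with lowess), AGO4 in 2 (-1.18 in both) and AGO2 in 1 (-0.64 with lowess). Both AGO4 values, and its 2-fold counts above, are those of 1 probe set, picked through its high value in control cells. It reached the median in control cells alone, and the other 3 AGO4 probe sets were higher in anti-miR cells. AGO3, at 0.21 from its 1 plain _at probe set, and AGO4, at 0.08 with the median over probe sets, changed sign.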
